A study of Mus musculus with 39 samples.

Results

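Levels of 7 genes of the absorptive lineage, Alpi, Apoa1, Apoa4, Fabp1, Fabp2, Sis and Lct, were read by name from the 25219 genes deposited for 39 single cells. All 7 names were found. The cells were crypt epithelial cells of mice that carried Lgr5-EGFP-Ires-CreERT2 together with Rosa-lsl-tdTomato, sorted as tdTomato+ Sca1-. Cre is expressed there from the Lgr5 locus, so tamoxifen leaves a red mark in cells that express Lgr5 at that time and in their progeny. Tamoxifen was given 24 h before total body irradiation (TBI) with 10 Gy, and cells were taken 48 h after it, in a study of how surviving Lgr5-derivatives differ from one another. Every cell had the same treatment, no unirradiated cell was part of the series, and the labels name no animal and no age. All 39 cells thus count as 1 biological sample, each SD is a spread over cells, and no test between cells was made.

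The absorptive enterocyte is the most abundant cell of the villus and arises from the stem cells at the crypt base. As it matures it builds a brush border that carries digestive enzymes, takes up fatty acids, and packs them with apolipoproteins into chylomicrons. Fabp1 and Fabp2, which encode the liver and the intestinal fatty acid binding proteins, Alpi, the intestinal alkaline phosphatase of the brush border, and Sis, which splits sucrose and isomaltose, were taken as early absorptive genes. Apoa1 and Apoa4, apolipoproteins that leave the enterocyte with secreted lipoproteins, and Lct, the lactase of the brush border, were taken as late ones. This split was set by hand from general knowledge and is not a measurement.

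Fabp2 was the only one of the 7 genes found in most cells. It was at 1 FPKM or more (FPKM, fragments divided by transcript length and by a total for the cell; called detected from here on) in 35 of 39 cells, Fabp1 in 19, Apoa1 in 11, and Alpi, Apoa4, Sis and Lct in 1 or 2 cells each. Fabp1 held the highest single value, 40997 FPKM, in the cell numbered 79. Early and late genes were found together in 12 cells, early genes alone in 24, and no pair of the 7 genes had a correlation above 0.22 across the cells.

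Depth was between 398418 and 3903971 estimated counts per cell (median 3089188), and 2287 to 5779 genes were detected per cell (median 4609). Cells 9 and 79 stood apart with 2287 and 2335 genes, and the next lowest cell had 2988. As a check of the label, Epcam, the epithelial adhesion molecule, was detected in all 39 cells. Of 7 immune markers 1 was detected, in 1 cell, and of 7 enteroendocrine markers likewise 1 in 1 cell. Shares of cells carry exact Clopper-Pearson 95% intervals, which cover counting error over these cells only, not the spread between animals. Reads had no molecular identifiers, and a count is no number of molecules.

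Positions are given as deposited and lie on the GRCm38 build. Alpi was on chromosome 1 from 87098002 to 87101606 and Lct on the same chromosome from 128284764 to 128328318, both on the minus strand. Sis was on the minus strand of chromosome 3 from 72888560 to 72966866, and Fabp2 on its plus strand from 122895072 to 122899506. Fabp1 was on the plus strand of chromosome 6 from 71199888 to 71205023. Apoa1 (46228630 to 46230469) and Apoa4 (46240844 to 46243458) were neighbours on the plus strand of chromosome 9, with 10374 bases between them. Antisense genes are annotated over Fabp2 and Apoa4, and the kit does not mark strand, so reads of the partners cannot be told apart.

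The 250 bases before the RefSeq start (GRCm38.p6) are shown for 4 genes, because those of Alpi, Fabp2 and Apoa4 share letters of the binding motif of HNF4, a factor of the enterocyte, while their levels lay far apart, and Fabp1 is the next most often detected gene. Capitals mark the HNF4 letters CAAAGTNCA, the promoter box letters TATAAA, the HNF1 letters GTTAAT and the CDX letters TTTATG, each searched on both strands and chosen with these sequences in view. The intervals are chr1:87101607-87101856 (minus strand) for Alpi, chr3:122894822-122895071 for Fabp2, chr9:46240594-46240843 for Apoa4 and chr6:71199629-71199878 for Fabp1, the last 3 on the plus strand.
Alpi: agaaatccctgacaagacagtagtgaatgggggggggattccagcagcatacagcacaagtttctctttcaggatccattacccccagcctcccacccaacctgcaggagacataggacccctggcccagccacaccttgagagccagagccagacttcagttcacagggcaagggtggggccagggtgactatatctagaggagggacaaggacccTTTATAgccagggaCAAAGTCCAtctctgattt
Fabp2: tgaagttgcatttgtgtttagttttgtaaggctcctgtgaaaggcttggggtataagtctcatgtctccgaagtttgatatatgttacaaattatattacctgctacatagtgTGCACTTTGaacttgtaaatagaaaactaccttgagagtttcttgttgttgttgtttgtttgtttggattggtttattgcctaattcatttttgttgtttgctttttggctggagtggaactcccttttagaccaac
Apoa4: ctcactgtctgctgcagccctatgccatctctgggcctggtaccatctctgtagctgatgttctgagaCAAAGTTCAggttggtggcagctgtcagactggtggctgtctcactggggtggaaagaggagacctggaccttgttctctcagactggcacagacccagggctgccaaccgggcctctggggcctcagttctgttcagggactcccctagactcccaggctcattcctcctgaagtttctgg
Fabp1: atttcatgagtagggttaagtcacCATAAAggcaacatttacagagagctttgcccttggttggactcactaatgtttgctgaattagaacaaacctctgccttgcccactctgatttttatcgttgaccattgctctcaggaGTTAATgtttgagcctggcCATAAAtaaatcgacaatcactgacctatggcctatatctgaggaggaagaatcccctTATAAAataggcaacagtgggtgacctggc

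The HNF4 letters began 19 bases before the start in Alpi, 137 in Fabp2 and 182 in Apoa4, and were in 1.19% of 32851 mouse windows of the same length. These 3 genes were detected in 2, 35 and 2 cells. TATAAA was in 3 of the 7 windows (Alpi, Sis and Fabp1) and in 12.4% of all windows, and in Fabp1 it began 30 bases before the start. GTTAAT was in Fabp1 and Sis (6.43% of all windows) and TTTATG in Fabp1, Sis and Lct (10.8%). Genes with the same letters thus differed widely in the number of cells, and a match is a description, not a site. Hnf4a itself was detected in 32 of 39 cells, with a median of 41.6 FPKM.

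Fabp2, whose product binds fatty acids in the enterocyte cytosol, was detected in 89.7% of the cells (35 of 39, interval 75.8% to 97.1%). Its lowest value was 0, its median 138 and its highest 559 FPKM (cell 94), with a mean of 172 ± 148 (SD, n = 39 cells). The values formed a broad main group, from 37.1 FPKM upwards in 33 cells, and a separate low group of 6 cells at or below 9.97 FPKM. No cell dominated: the highest held 8.34% of the summed FPKM. Of all genes deposited, 14.5% were detected in 20 or more of the 39 cells, and Fabp2 was the only one of the 7 to reach that number.

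The 6 cells low in Fabp2 were cells 9, 16 and 96 with a count of 0, cell 48 with 3 counts, cell 79 with 11 and cell 92 with 31. Of these, cell 9 was the shallowest library and the other 5 had between 1466913 and 3347203 estimated counts. The 6 cells had 2287 to 4138 genes detected (median 3236), against 3191 to 5779 (median 4658) in the other 33 cells. Epcam was between 88.2 and 430 FPKM in all 6. Mki67, a marker of cycling cells, was below 1 FPKM in all 6, and Olfm4, the stem cell marker with the highest mean here, was at 2353 FPKM in cell 96, 202 in cell 48 and at most 2.56 in the others. Other genes of these lists were high in some of the 6: Pcna was at 308 FPKM in cell 79 and 198 in cell 16, Top2a at 93 and Smoc2 at 612 in cell 9, and Slc12a2 at 207 in cell 48 and 125 in cell 92.

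Fabp1 was detected in 48.7% of the cells (19 of 39, interval 32.4% to 65.2%). Its lowest value was 0, its median 0.996 and its highest 40997 FPKM. The mean of 1116 ± 6557 FPKM (SD, n = 39) rested on cell 79, which held 94.2% of the summed FPKM through 46562 estimated counts, and Fabp1 was the highest gene of that cell. Without it the mean was 66.5 ± 188 FPKM and the next highest value was 1095 FPKM, in cell 43. Among the 19 cells with Fabp1 the lowest was 1.20 and the median 67.8 FPKM, so most of them were well above the detection limit. A further 7 cells held between 0 and 1 FPKM from at most 2 counts.

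Alpi was detected in 2 cells (5.13%, interval 0.627% to 17.3%) and was at 0 in 36 of 39. Cell 9, the shallowest of all, held 282 FPKM from 785 counts, or 99.2% of the summed FPKM, and cell 34 held 2.14 FPKM from 19 counts. Its close paralogs Alppl2 and Akp3, with which reads could be shared, were at 0 in all 39 cells. Sis was detected in cell 4 only, at 1.12 FPKM from 24 counts, and 1 further count fell in cell 48. Mgam, which encodes the related brush border enzyme maltase-glucoamylase, was detected in 33 cells with a median of 17.3 FPKM.

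Among the late genes, Apoa1, the main protein of high density lipoprotein, was detected in 28.2% of the cells (11 of 39, interval 15% to 44.9%). Its lowest value and its median were 0, its highest was 146 FPKM in cell 30, and its mean 10.6 ± 27.8 (SD, n = 39). The next highest values were 68.1 FPKM in cell 54 and 47.6 in cell 67, and a value of 59.7 in another cell lay between them. Apoa1 was thus spread over several cells, the highest holding 35.3% of the summed FPKM. It was also detected in cell 79 (8.33 FPKM) and, from 2 counts, in cell 9.

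Apoa4, which is secreted with chylomicrons, was detected in cell 96 at 78.1 FPKM from 441 counts and in cell 43 at 2.27 FPKM from 3 counts. Lct was detected in cell 2 alone, at 2.19 FPKM from 43 counts (2.56% of cells, interval 0.0649% to 13.5%). When every cell was thinned to 390000 reads, the number of cells with at least 1 read was 35 for Fabp2, 19 for Fabp1, 10 for Apoa1, 2 each for Alpi and Apoa4, and 1 each for Sis and Lct. The order of the genes by number of cells was thus the same at equal depth.

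By mean level the order was Fabp1, Fabp2, Apoa1 (10.6 FPKM), Alpi (7.28 ± 45.1), Apoa4 (2.06 ± 12.5), Lct (0.0561 ± 0.350) and Sis (0.0299 ± 0.180). For every gene but Fabp2 the SD exceeded the mean. Fabp2 and Apoa1 differed by more than the larger of their SDs over the cells, and no other neighbours in this order did. The order depended on single cells. Without the highest cell of each gene the means were 162 FPKM for Fabp2, 66.5 for Fabp1 and 7.05 for Apoa1. They were then 0.0598 for Apoa4, 0.0590 for Alpi, 0.0011 for Sis and 0 for Lct. Within cells, Fabp2 was the highest of the 7 genes in 30 of 39 and Fabp1 in 5. Alpi led in cell 9, Apoa1 in cell 30 and Apoa4 in cell 96.

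**Figure D1:**
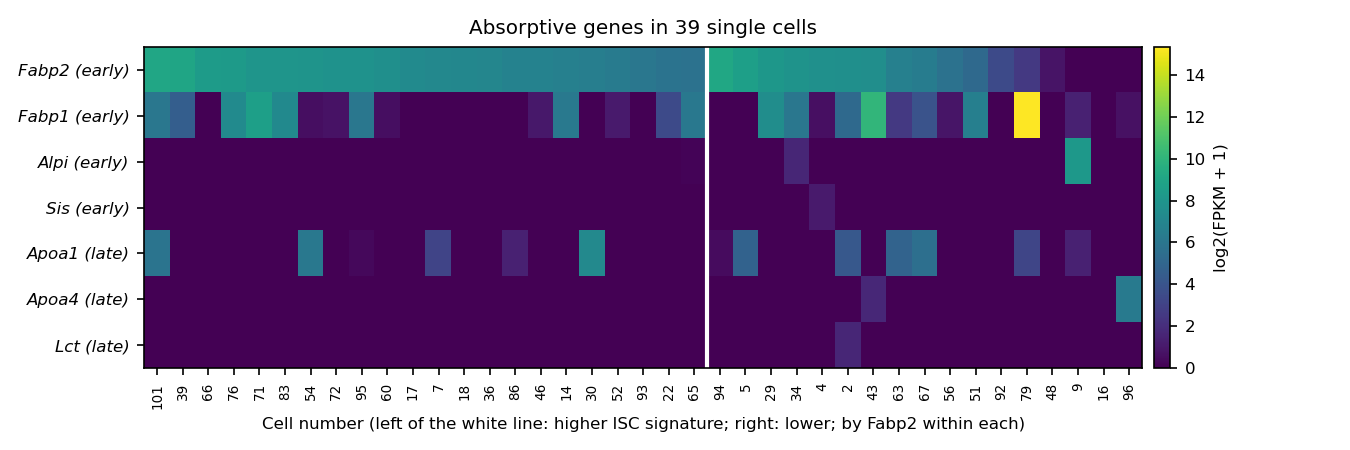
Level of the 7 absorptive genes as log2(FPKM + 1), in colour, in each of the 39 cells, with cells ordered by Fabp2 within the groups of higher (22 cells) and lower (17 cells) intestinal stem cell signature. Fabp2 is present in 35 cells, Fabp1 in 19 with a maximum of 40997 FPKM in cell 79, and Alpi, Sis, Apoa4 and Lct in 1 or 2 cells each.

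Early and late genes were next compared within each cell. Early genes alone were detected in 24 cells (61.5%, interval 44.6% to 76.6%), early and late genes together in 12 (30.8%, interval 17% to 47.6%), late genes alone in 1 and neither in 2. The cell with late genes alone was cell 96, and those with neither were cells 16 and 48. The summed FPKM of the early genes exceeded that of the late genes in 36 cells, and the reverse held in cells 30 and 96. Since Fabp2 is one of the early genes and was found nearly everywhere, the early sum was above 0 in most cells whatever the other genes did: 11 cells had Fabp2 and no other of the 7.

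No cell held all 7 genes. The number detected per cell was 0 in 2 cells, 1 in 12, 2 in 17, 3 in 7 and 4 in 1. The cell with 4 was cell 2, with Fabp2 at 200 FPKM, Fabp1 at 37, Apoa1 at 17.5 and Lct at 2.19. Cell 2 also had the most genes detected of all cells (5779) and was the only cell with an immune marker. In the 13 cells with a late gene the median of Fabp2 was 112 FPKM, against 148 in the 26 without, and the ranges overlapped. Fabp1 was detected in 7 of these 13 cells.

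**Figure D2:**
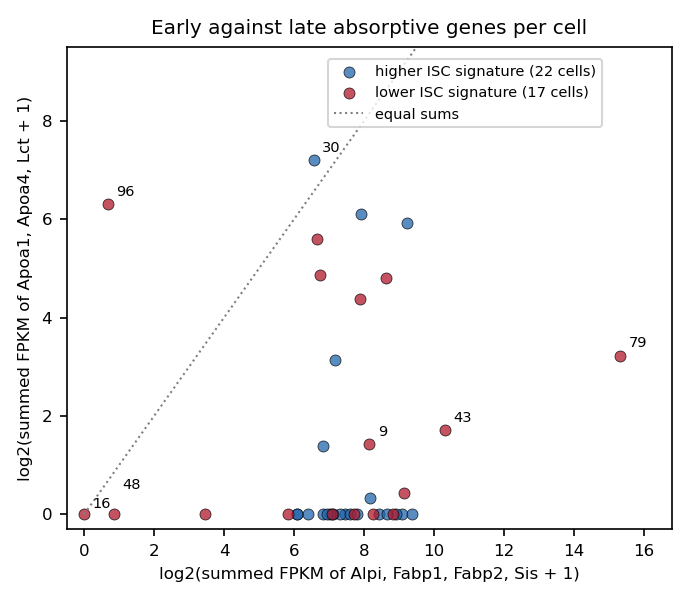
Summed FPKM of the late genes Apoa1, Apoa4 and Lct against that of the early genes Alpi, Fabp1, Fabp2 and Sis, both as log2(sum + 1), with 1 point for each of the 39 cells and numbers beside the cells named in the text. Most cells lie on or near the horizontal axis, and cells 30 and 96 are above the dotted line of equal sums.

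Over the 21 pairs of the 7 genes, Pearson r of log2(FPKM + 1) across the 39 cells had a median of -0.03 and ran from -0.39 (Alpi and Fabp2) to 0.22 (Apoa1 and Lct). The value of Alpi and Fabp2 turned to 0.085 without cells 9 and 79, and its Spearman rho was -0.18. Apoa4 and Fabp2 were also below -0.3, at -0.39, with -0.47 without cells 9 and 79 and a Spearman rho of -0.16, and 97.2% of the Apoa4 was in cell 96. Of the 8425 genes in 5 or more cells with a mean reaching 1 FPKM, which leave out Alpi and Apoa4, 2.47% had so low an r with Fabp2. No pair reached 0.3, which 18.2% of the 8425 did with Fabp2, 2.74% with Fabp1 and 2.4% with Apoa1, and 9 pairs were never detected in the same cell. These values describe cells that differ in depth and in the number of genes detected, and most pairs rest on 1 or 2 cells. Apoa1 and Apoa4, neighbours on chromosome 9, were in 11 and 2 cells and in no cell together.

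The 3 pairs found together in 5 or more cells were those among Fabp1, Fabp2 and Apoa1. Fabp1 and Fabp2 were both detected in 18 cells, Fabp2 alone of the pair in 17 and Fabp1 alone in 1, with r = 0.11 and Spearman rho = 0.13. Without cells 9 and 79, r was 0.30. Fabp1 exceeded Fabp2 in 7 cells. Apoa1 was found with Fabp2 in 10 cells (r = 0.13) and with Fabp1 in 6 (r = -0.0043).

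**Figure D3:**
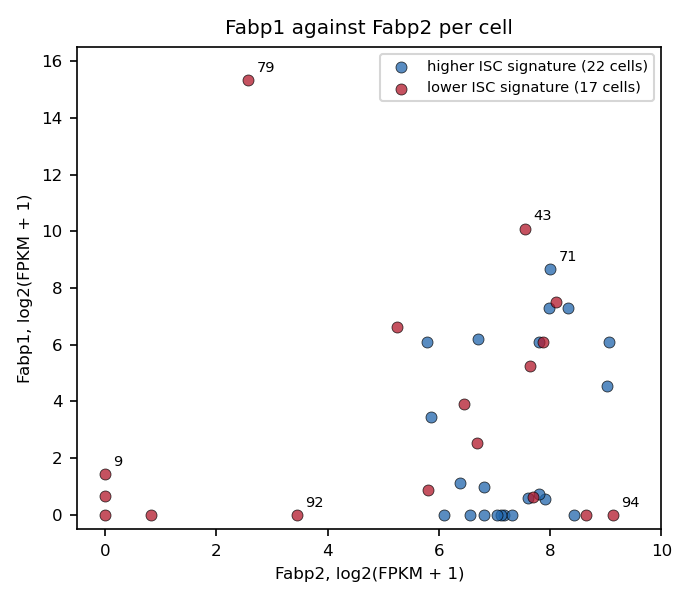
Fabp1 against Fabp2 as log2(FPKM + 1), with 1 point for each of the 39 cells, coloured by the group of higher or lower intestinal stem cell signature. At Fabp2 levels of 37.1 FPKM and more, Fabp1 runs from 0 to 1095 FPKM (cell 43), and cell 79 stands alone at 40997 FPKM of Fabp1 and 4.94 FPKM of Fabp2.

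Genes of the wider absorptive programme were read from lists. Not all listed genes are particular to enterocytes: Vil1 and Krt19 also stand in a list of 6 epithelial markers. Of 12 genes of brush border structure, 11 were detected in a cell and 6 in 20 or more cells, a number that 14.5% of all genes deposited reached and 37.4% of those with a mean of 1 FPKM or more. Examples were Ezr (ezrin, which links membrane and actin) in 35, Eps8 in 33 and Vil1 (villin, which bundles actin) in 31. Of 12 other brush border hydrolases, 8 were detected in no cell, where 50.7% of all genes deposited were in no cell, and Mgam was the only one in 20 or more. Dpp4, a dipeptidyl peptidase of the brush border, was in 15 cells and Anpep, an aminopeptidase, in 4. Of 14 nutrient transporters, Slc5a1, the sodium and glucose cotransporter, was in 24 cells and 4 were in none.

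Of 19 genes of lipid absorption and chylomicron assembly, 17 were detected and 4 were in 20 or more cells, beside the 14.5% of all genes and the 37.4% of genes whose mean reached 1 FPKM. Of all genes deposited, 50.7% were detected in no cell. Sar1b, a GTPase of vesicle transport that chylomicron export requires, was in 35 cells (median 63.1 FPKM), Acsl5, which activates fatty acids, in 30, and Plin2, a lipid droplet protein, in 25. Rbp2, the cellular retinol binding protein of the enterocyte, was in 16 cells and up to 570 FPKM in cell 67. Of 18 enterocyte transcription factors, all were detected and 6 were in 20 or more cells: Elf3 in 36 (median 111 FPKM), Klf5 in 33, Hnf4a in 32 and Cdx1 in 27 were those with the highest means.

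Of 8 genes of the lower villus and crypt, 4 were in 20 or more cells (median 19.5 cells), with Krt19, a keratin of simple epithelium, and Ckmt1, a mitochondrial creatine kinase, each in 37. Of 8 genes of the villus tip, 1 was (median 12 cells), Fos in 27, while Ada, adenosine deaminase, was in 14. The numbers of cells overlapped between these lists. In comparison, 8 of 10 stem cell markers and 8 of 8 proliferation markers were in 20 or more cells, where the shares of all genes were 14.5% and, at a mean of 1 FPKM or more, 37.4%. Lgr5 itself was in 8 cells, Olfm4 in 33 and Mki67 in 27.

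**Figure D4:**
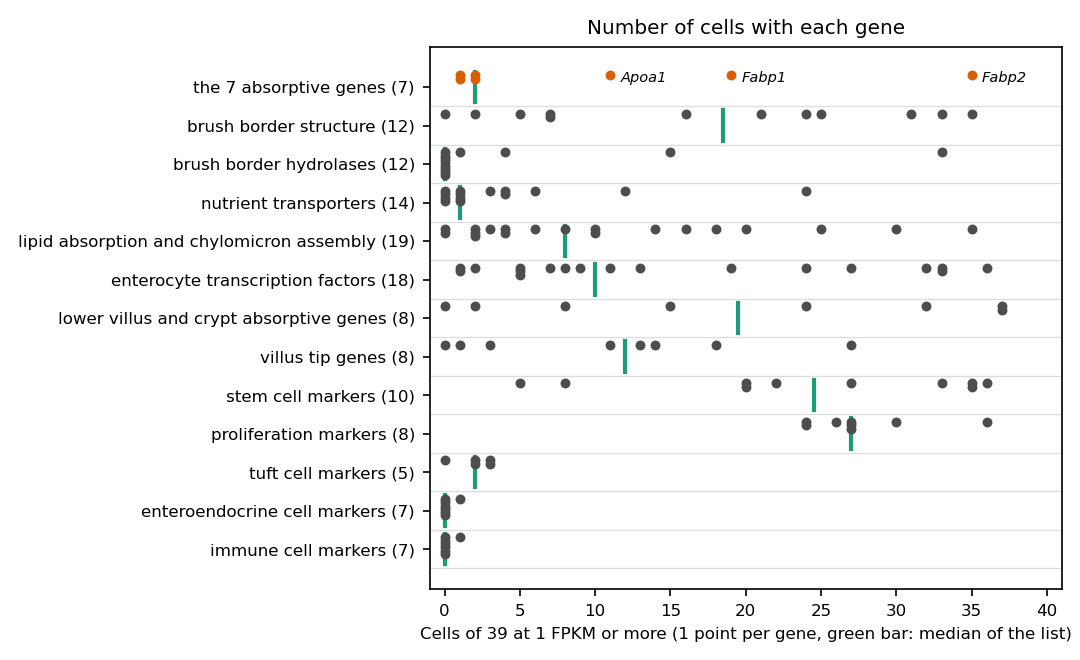
Number of the 39 cells at 1 FPKM or more for each gene of the 7 absorptive genes and of 12 other lists, with the number of genes in each list in brackets and a green bar at its median. The median is 2 cells for the 7 genes, 0 for brush border hydrolases, 18.5 for brush border structure and 27 for proliferation markers.

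The single cells with the highest Fabp1, Alpi or Apoa4 differed in what else they held. Cell 43, with Fabp1 at 1095 FPKM, had the lowest depth after cell 9 (661255 estimated counts) and held 9 of the 19 lipid absorption genes, among them Rbp2 at 327, Plin2 at 164 and Acsl5 at 81.7 FPKM. It also held Anpep at 59.0, Mgam at 110 and Hnf4a at 222 FPKM, all 8 proliferation markers, and Olfm4 at 5.38 FPKM. Its summed goblet markers (131 FPKM, 6 of 7 detected) and Paneth markers (139 FPKM, 4 of 8) were below the medians of 176 and 360. Of brush border structure it held 3 of 12 genes, with a summed level of 96.4 FPKM against a median of 254, and Vil1 was at 0.809 and Ezr at 0 FPKM. Mttp (163 FPKM), Mogat2 (148) and Npc1l1 (47.5), named after their values were seen, were also among the 9 lipid absorption genes of this cell.

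Cell 79, with 40997 FPKM of Fabp1, held 1 of the 19 lipid absorption genes, Sar1b at 357 FPKM, and none of the 12 hydrolases. It held 6 of 12 genes of brush border structure, among them Vil1 at 305 and Cdhr5 at 248 FPKM, and their summed level of 1074 FPKM was the highest of the 39 cells (median 254). It held 3 of 5 markers of the tuft cell, a rare chemosensory cell of the epithelium: Rgs13 at 1368, Trpm5 at 181 and Dclk1 at 105 FPKM. Cell 96, the cell with the highest Apoa4, held 4 of the 5, Rgs13 at 3217, Dclk1 at 222, Pou2f3 at 162 and Trpm5 at 10.0 FPKM, and had Fabp2 at 0. It held 7 of the 12 brush border genes, with a summed level of 873 FPKM, and 6 of 8 Paneth markers, with a summed level of 1553 FPKM against a median of 360. Across all cells the summed FPKM of the 5 tuft markers had a median of 0 and a maximum of 3611. Cell 9, with 282 FPKM of Alpi, held 7 of 7 goblet markers, with Zg16 at 1402, Tff3 at 328 and Agr2 at 243 FPKM. It held 5 of 8 Paneth markers, with Defa24 at 3305 FPKM, and 3 of 8 villus tip genes, with Ada at 515 FPKM. Of the 19 lipid absorption genes it held 6, with Rbp2 at 456 FPKM. Whether these cells held RNA of more than 1 cell was not tested. Defa24 was detected in 38 of the 39 cells.

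Fabp2 was next set beside stem cell and proliferation genes. All 8 proliferation markers had r of 0.3 or more with Fabp2 over the 39 cells (median 0.49), among them Ccnb1 at 0.53, Mki67 at 0.51, Mcm5 at 0.46 and Pcna at 0.39. Of all 8425 genes compared, 18.2% had such an r (median 0.14), and Fabp2 itself had r = 0.54 with the number of genes detected per cell. In the 33 cells at 20 FPKM of Fabp2 or more, a limit set after the values were seen, 0 of the 8 had r of 0.3 or more (median 0.12), against 5.08% of the genes compared, and r with the number of genes detected was 0.00861. Leaving out cells by their Fabp2 narrows its range and lowers r for genes in general, so this does not show that no relation was present. Spearman rho over the 39 cells was between 0.17 (Pcna) and 0.47 (Cdk1) for the 8 genes, with Ccnb1 at 0.45 and Mki67 at 0.41. Cdk1 is named because its rho was the highest of the 8.

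Of 10 stem cell markers, 2 had r of 0.3 or more with Fabp2, Cdca7 at 0.69 and Slc12a2 at 0.49, a share near the 18.2% of the genes compared, and in the 33 cells none did. At -0.3 or less was 1 of the 10, Lgr5 at -0.33, against the same 2.47% of genes. Olfm4 had r = 0.23 with Fabp2 (rho = -0.00081) over 39 cells and -0.33 over the 33. With Fabp1, whose background was 2.74% at 0.3 or more and 2.66% at -0.3 or less, no stem cell marker had r of 0.3 or more and 2 of 10 had -0.3 or less, Smoc2 at -0.32 and Cd44 at -0.31, with Olfm4 at -0.27. Spearman rho with Fabp1 was -0.26 for Smoc2, -0.25 for Cd44 and -0.21 for Olfm4. Without cells 9 and 79, r of Fabp1 and Olfm4 was -0.18. With Apoa1, whose background was 2.4% and 4.25%, 0 of 10 were at 0.3 or more and 2 of 10 at -0.3 or less, Ascl2 at -0.52 and Slc12a2 at -0.31. Of the 15 enterocyte transcription factors frequent enough to compare, 1 reached 0.3 with Fabp2 (Gata4, 0.33), 1 with Fabp1 (Ppara, 0.38) and none with Apoa1. Smoc2, Ascl2, Gata4 and Ppara are named here because of these values. Hnf4a had r of 0.15, -0.00051 and -0.22 with Fabp2, Fabp1 and Apoa1, and Spearman rho of 0.31, 0.17 and -0.14. Without cells 9 and 79 these r were 0.064, 0.20 and -0.18.

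**Figure D5:**
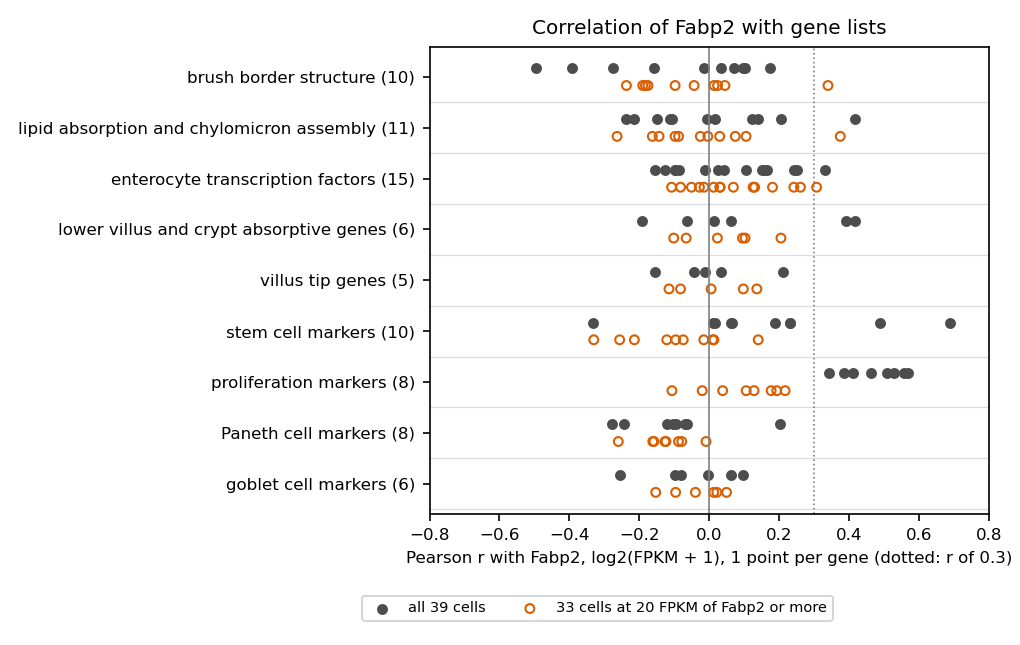
Pearson r of log2(FPKM + 1) between Fabp2 and each gene of 9 lists, with 1 point per gene, over all 39 cells (filled) and over the 33 cells at 20 FPKM of Fabp2 or more (open). The 8 proliferation markers lie right of 0.3 over all cells (median 0.49) and left of it over the 33 cells (median 0.12).

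The genes most like each of the 3 members found in 10 or more cells, by Pearson r over 39 cells, are named up to the fifth. For Fabp2 they were Plp2 (r = 0.80, a membrane protein), Tuba1b (0.77, an alpha-tubulin), Ube2n (0.75, a ubiquitin-conjugating enzyme), Prickle3 (0.74) and Snrpd3 (0.74, a core protein of the spliceosome). In the 33 cells their r was 0.12, -0.04, 0.02, 0.31 and -0.12. Their Spearman rho over the 39 cells was 0.20, 0.35, 0.28, 0.44 and 0.31, and none stayed among the first 5 by rho. For Fabp1 they were Cst6 (0.60), Rogdi (0.55), Por (0.55, the reductase of cytochrome P450 enzymes), Cpeb2 (0.53) and Mysm1 (0.53), of which Cst6 fell to 0.38 and Rogdi to 0.33 without cell 79. For Apoa1 they were Atf6 (0.64, a sensor of stress in the endoplasmic reticulum), Ccnjl (0.58), Tubgcp5 (0.58), Cdipt (0.57, which makes phosphatidylinositol) and Edem1 (0.54, which acts in disposal of misfolded proteins).

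A grouping by intestinal stem cell (ISC) signature, as the study made, was rebuilt from the 98 signature genes, all found in the table and none of them among the 7. It gave 22 cells with the higher and 17 with the lower signature, cells 9 and 79 among the latter. Fabp2 was detected in 22 of 22 and 13 of 17 of these cells, between 54.5 and 533 FPKM (median 151) in the former and between 0 and 559 (median 86.5) in the latter. The means of log2(FPKM + 1) were 7.35 ± 0.94 and 5.16 ± 3.31, a difference of 2.19. Of the 9804 genes whose mean reached 1 FPKM, 19.2% were higher by 1 or more in the former group, and the median difference was 0.28. Without cells 9 and 79, the cells with the fewest genes, the difference was 1.67. All 6 cells low in Fabp2 were in the lower group. Without them it was -0.0031, a removal made on the value compared, which had to shrink the difference, and the range of the higher group lay within that of the remaining 11 lower cells.

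Fabp1 was detected in 10 of 22 cells with the higher signature and in 9 of 17 with the lower, with medians of 0.828 and 1.71 FPKM. Its difference was -0.87 on the log2 scale, less than the SD of 3.13 and 4.39 over the cells of each group. Apoa1 was detected in 5 of 22 and 6 of 17 cells (difference -0.35). Alpi, Apoa4, Sis and Lct were detected in 0 of the 22 cells, which allows a share of up to 15.4% (exact interval), and in 2, 2, 1 and 1 of the 17. Cell 9 held 99.2% of the summed FPKM of Alpi, and cell 96 held 97.2% of that of Apoa4. How many of all genes were detected only in the lower group was not counted, and no group difference is read from so few cells. Of the 5 members among the 9804 genes (all but Sis and Lct), none was lower by 1 or more in the higher group, where 3.35% of the 9804 were. The difference of Fabp1 was -1.10 with a pseudocount of 0.1 FPKM, -1.24 without the 6 cells low in Fabp2 and -0.23 without cells 9 and 79. The groups also differed in depth (medians 3393504 and 2704767 estimated counts) and in genes detected (4664 and 4073), and the part of these in the differences was not tested.

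Relatives of the 7 genes were looked up after the values above were seen. Fabp5, the epidermal fatty acid binding protein, was detected in 16 cells and up to 148 FPKM, Fabp6, the ileal bile acid binding protein, in 2, Fabp3 in 1, and Fabp4 and Fabp7 in none. Apoc3, another apolipoprotein of the chylomicron, was detected in 2 cells.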

How the data were processed

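Cells captured with a microfluidic system were inspected under the microscope by the authors, and no doublets were called here. cDNA was made with the SMARTer kit and sequenced with Nextera XT libraries. FPKM values and estimated counts were used as the authors deposited them. The counts were not all whole numbers. The submitters' processing notes name bcl2fastq 1.8.4, TopHat2 2.0.14 and the builds mm10 and GRCm38. The quantification tool is not given in the sources used here. All 78 value columns belonged to the 39 cells, the number the study states.

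The 7 genes, the gene lists, the motifs and the rules were chosen with earlier results of these data known. Named genes were the 7 members, the 5 genes with the highest r for each member in 10 or more cells (among genes in 5 or more cells and with a mean of 1 FPKM or more), up to 4 genes of highest mean per list, Olfm4, Lgr5 and Mki67. Some others, such as Cdk1, Smoc2 and Mttp, were named after their values were seen. Levels were log2(FPKM + 1). Groups came from hierarchical clustering on the signature genes, as in the study; complete linkage and Euclidean distance were chosen here, since the study names neither. Counts were rounded for thinning. Correlation with a planted pattern, the difference between 2 groups and the thinning were tried on simulated counts. The other steps were not. Transcripts lost before amplification read as 0. Scripts ran on Python 3.11.15 with scipy 1.17.1, pandas 2.3.3, numpy 2.4.6 and matplotlib 3.10.9. Alternatives were other detection limits, a pseudocount of 0.1 FPKM, thinning, rescaling, Spearman rho, Ward linkage and fewer cells.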

Additional observations from a re-analysis of the deposited data

How the results depend on the processing

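With any value above 0 counted as detected, 2 of the 7 genes were in 20 or more cells (Fabp1 in 26), against 1. With a limit of 10 FPKM, 7 cells held early and late genes together, against 12. The r of Fabp2 and Olfm4, 0.23, was -0.00081 as Spearman rho, 0.074 without cells 9 and 79 and -0.33 without the cells below 20 FPKM of Fabp2. The difference of Fabp2 between the signature groups, 2.19, was -0.0031 without those cells and 1.67 without cells 9 and 79. The values without cells below 20 FPKM of Fabp2 and the 0.074 were chosen after seeing the data, and the former leave out cells by the value compared. The difference of Fabp1, -0.87, passed -1 with a pseudocount of 0.1 FPKM (-1.10) and without the cells below 20 FPKM of Fabp2 (-1.24). The r of Alpi and Fabp2, -0.39, was 0.085 without cells 9 and 79, which removes the cell with nearly all Alpi. Of the 15 genes most like Fabp1, Fabp2 and Apoa1, 8 stayed among the first 5 with a pseudocount of 0.1 FPKM and 7 without the highest cell of each gene. By Spearman rho 3 stayed: 2 for Apoa1, 1 for Fabp1 and 0 for Fabp2. Ward linkage gave the same group for all 39 cells.

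No paired analysis was possible because there is 1 group of cells and no animal is named.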
